A study of Mus musculus with 4 samples.

Results

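T cells were a small minority of the cells recovered from mouse ovary by a sort for myeloid cells: 71 of 6281 kept cells were T cells, 21 of 2181 at 3 months and 50 of 4100 at 15 months. The sort collected cells positive for CD45, which marks leukocytes, and for CD11b, the integrin alpha M encoded by Itgam that is best known from macrophages, monocytes, neutrophils and NK cells. The ovaries came from virgin, wild-type (WT) C57BL/6J mice, and all groups shared that genotype and sort. The 3-month group was harvested at 2 to 3 months of age from 6 animals, and the 15-month group at 14 to 17 months from 5 animals. Each age had 3 pools of dissociated ovaries, each pool marked with its own hashtag antibody, and the 3 pools of an age went together through a single sort into a single Chromium 3' library, so age and library cannot be told apart in any value here. The protocol gives 1 of the 15-month pools as coming from a single animal, without saying which, while the series' design text gives 2 mice for every pool. The series title puts its question to ovarian macrophages, and T cells lie outside that question and outside the usual CD11b-positive gate.

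A T cell recognises antigen through a T cell receptor, either an alpha-beta or a gamma-delta pair of chains, which signals through the CD3 gamma, delta and epsilon chains held beside it. Alpha-beta T cells that carry CD8 are mostly killers of infected or damaged cells, those that carry CD4 mostly help or restrain other immune cells, and gamma-delta T cells are a smaller lineage that lives largely in tissues and acts early. In the ovary T cells are few in young adult animals, and lymphocytes have been described as more frequent in the ovaries of old mice.

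A cell was counted as a T cell by its own unique molecular identifiers (UMIs, each standing for 1 captured transcript). It needed at least 500 genes, at least 1000 gene UMIs, at most 10% mitochondrial UMIs, and a top hashtag of at least 10 counts and at least 3 times the second. It also needed at least 2 UMIs over Cd3d, Cd3e and Cd3g, no UMI of the NK receptor gene Ncr1, at most 2 UMIs over the B cell genes Cd79a, Cd79b and Ms4a1, fewer than 10 over the macrophage complement genes C1qa, C1qb and C1qc, and fewer than 10 of the macrophage lysozyme gene Lyz2. Of 8074 barcodes 6579 met the limits on quality and 6281 also met that on hashtags, and 1 further cell met the T cell limits but not the hashtag limit. Of 173 kept cells with at least 2 Cd3 UMIs, 12 had Ncr1, 23 had more than 2 B cell UMIs, 72 had at least 10 C1q UMIs and 65 had at least 10 Lyz2 UMIs, with overlap among these. The measured values of these genes chose the members, so their levels are described: they stayed in the fit across all genes, and no p of theirs is read. Cd3g had 1526, 1010 and 1090 CPM (UMIs of the gene scaled to 1e6 UMIs of the cells) in the 3-month pools and 600, 914 and 1023 CPM in the 15-month pools. Cd3d had 539, 823 and 527 CPM, then 666, 854 and 849 CPM, and Cd3e 539, 299 and 352 CPM, then 167, 462 and 563 CPM. The ages overlapped for all 3 genes.

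The pools were told apart by 3 hashtag oligonucleotides, each a barcode of 15 bases, and the T cells of the same number in the 2 libraries carry the same barcode. They are shown because every share and every level by pool below rests on them, and the capitals mark the whole barcode.
B0301, pool 1: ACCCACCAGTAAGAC
B0302, pool 2: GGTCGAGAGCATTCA
B0303, pool 3: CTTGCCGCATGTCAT
In the 3-month T cells the median count of a cell's own hashtag was 2023.5 in pool 1, 3841 in pool 2 and 2532 in pool 3, beside medians of 54.5, 10 and 8 for the next hashtag. In the 15-month T cells the medians were 1586, 3465 and 2363, beside 95, 12 and 23.5. The own hashtag was thus far above the next one in the T cells of all 6 pools.

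Gene UMIs came to 27277073 over 3135 barcodes at 3 months and to 45060166 over 4939 barcodes at 15 months. T cells were shallower than most kept cells, with a median of 3887 UMIs at 3 months (range 2524 to 12642) and 3839.5 at 15 months (range 1719 to 17073), against 7633 and 7692.5 over all kept cells. NK cells, defined here by at least 1 Ncr1 UMI and at most 1 Cd3 UMI under the same other limits, numbered 350 and had medians of 2986 and 4126. Cells with high C1q, the macrophage side of the rule, were kept cells with at least 10 C1q UMIs and no UMI of Cd3d, Cd3e or Cd3g. They numbered 2355 and had medians of 9542.5 and 11306. Cells with both C1q and Cd3 UMIs were left out of this class, so its shares for T cell genes below depend in part on that limit. The T cells of the 3-month pools summed to 22278, 26734 and 56898 UMIs, and those of the 15-month pools to 30024, 99522 and 97729, so all tests on T cells rest on shallow sums. The libraries shared 3 barcodes, 0 of them T cells.

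The name held against a receptor gene that the rule did not use. Trbc2, a constant region of the T cell receptor beta chain, was seen in 64 of the 65 T cells with at least 5 Cd3 UMIs, in 4 of 4 with 3 to 4 and in 1 of 2 with exactly 2. It was seen in 1 of the 9 cells just outside the rule, with 1 Cd3 UMI, and in 1.80% of 1553 cells with none that met the other limits. Those limits leave out every cell with Ncr1, so NK cells as defined here are not in this comparison. Their share with Trbc2 was far higher than 1.80% and is given in the next paragraph. Near the other limits, 5 T cells had 7 to 9 C1q UMIs and 1 cell was left out with 10 to 12, and for Lyz2 these numbers were 1 and 1. Cd3g, Cd3d and Cd3e lie side by side on chromosome 9 (GRCm38, chr9:44969572-44980431, chr9:44981786-44987339 and chr9:44998740-45009627), with 1355 bases between the starts of the divergently transcribed Cd3g and Cd3d. Trbc2 lies on chromosome 6 (chr6:41546730-41548352).

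T cells of the ovary carried the transcripts of receptor assembly and T cell identity. Trbc2 was seen in 97.2% of T cells (95% Wilson interval 90.3 to 99.2%), in 40.9% of NK cells and in 0.425% of C1q-high cells. Trac, the constant region of the alpha chain, was seen in 76.1% of T cells, 8.57% of NK cells and 0.297% of C1q-high cells. Bcl11b, a transcription factor that fixes T cell fate, was seen in 53.5%, 1.71% and 0.0425%. Depth differs between these classes, so each cell was also thinned at random to 1500 UMIs, which all 71 T cells, 345 NK cells and 2308 C1q-high cells could give. Thinned, the share for Trac was 45.1% of T cells, 2.90% of NK cells and 0% of C1q-high cells, and for Trbc2 77.5%, 27.8% and 0.0867%. All intervals for shares cover counting error only.

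Gzmk, a granzyme of memory-like T cells, was seen in 28.2% of T cells, 0.857% of NK cells and 0 of 2355 C1q-high cells. Cxcr6, the receptor for the tissue chemokine CXCL16, was seen in 49.3% of T cells, 9.71% of NK cells and 0.170% of C1q-high cells, and thinned in 33.8%, 4.93% and 0.0433%. Il7r, the receptor for the T cell survival cytokine interleukin 7, was seen in 56.3%, 6.00% and 13.8%, and thinned in 35.2%, 3.19% and 4.12%. The T cells lay above both other classes for these 3 genes at either depth.

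The NK-like genes ran the other way. Gzma, the granzyme that NK cells store in bulk, was seen in 10 of 71 T cells (14.1%) and in 85.4% of NK cells, and its pooled level was 1110 CPM in T cells and 13556 in NK cells. Nkg7, a granule protein, was seen in 66.2% of T cells and 99.4% of NK cells, and the chemokine gene Ccl5 in 66.2% and 98.9%. Klre1, a lectin receptor of NK cells, was seen in 29.6% of T cells and 85.7% of NK cells. T cells therefore overlapped with NK cells in kind, with fewer cells carrying each of these transcripts. These comparisons of classes are descriptions, since the rule was built on the same contrast.

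**Figure D1:**
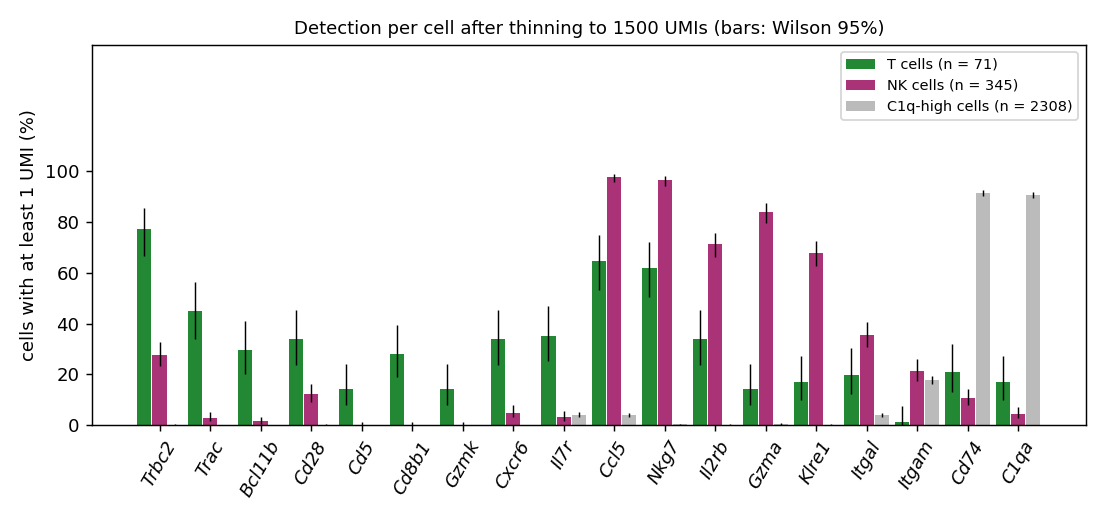
Share of cells with at least 1 UMI (y axis, %) for 18 genes (x axis) after thinning every cell to 1500 UMIs, in 71 T cells (green), 345 NK cells (purple) and 2308 C1q-high cells (grey), with 95% Wilson intervals. Receptor and identity genes stand highest in T cells, Gzma and Klre1 stand highest in NK cells, and Itgam is lower in T cells (1.41%) than in the others (21.4% and 17.9%).

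Itgam, the gene behind the CD11b of the sort, was rarely seen in the T cells. It was seen in 8 of 71 (11.3%), in 41.7% of NK cells and in 60.7% of C1q-high cells, and after thinning in 1.41%, 21.4% and 17.9%. By pool its level in T cells was 44.9, 74.8 and 17.6 CPM at 3 months and 99.9, 100.5 and 10.2 CPM at 15 months. In the NK cells of the same pools it was 161, 67.8 and 71.1 CPM, then 247, 247 and 204 CPM, so T cells were lower than NK cells in 5 of 6 pools, the second 3-month pool being the exception. Of the 8 T cells with Itgam, 5 were among the 7 T cells rich in the antigen presentation gene Cd74 that are described further on, which leaves 3 of 64 in the rest. Itgam lies on chromosome 7 (chr7:128062640-128118491). A transcript seen in few cells at this depth does not show that the surface protein was absent.

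The share of T cells did not differ between the ages beyond the spread of the pools, and 1 pool carried the difference in means. At 3 months T cells were 6 of 725 kept cells in pool 1 (0.828%), 4 of 479 in pool 2 (0.835%) and 11 of 977 in pool 3 (1.13%). At 15 months they were 5 of 767 (0.652%), 21 of 2437 (0.862%) and 24 of 896 (2.68%, 95% Wilson interval 1.81 to 3.95%). The third 15-month pool stood above the other five, and the first and second 15-month pools lay among or below the 3-month pools. The means were 0.930% ± 0.170 (SD, n = 3 pools) and 1.40% ± 1.11 (SD, n = 3 pools), and the difference of 0.468 percentage points had p = 0.8 in a two-sided exact permutation test, whose smallest possible p is 0.1. Without the third 15-month pool the difference was -0.173 points.

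The third 15-month pool was also the one in which T cells were as many as NK cells. The ratio of T to NK cells was 0.0779, 0.143 and 0.164 in the 3-month pools and 0.116, 0.189 and 1.00 in the 15-month pools, where the last value is 24 T cells to 24 NK cells. NK cells were 2.68% of the kept cells of that pool and 4.55 to 10.6% of those of the other five. Both the T cell share and the NK cell share of that pool were thus at the edge of the range. All shares depend on a CD11b sort, so they are shares of sorted cells and not of the ovary.

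**Figure D2:**
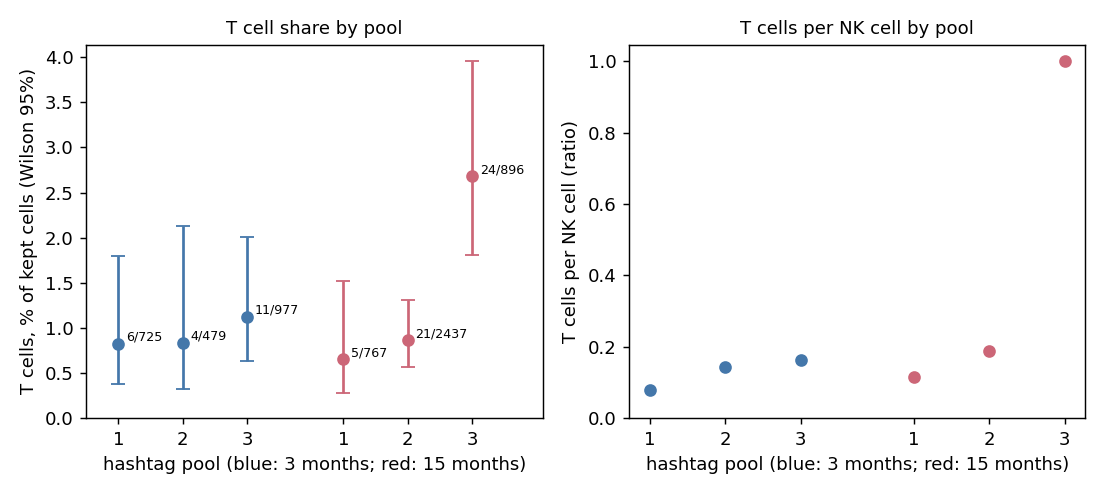
Left, T cells as a percentage of the kept cells of each hashtag pool with 95% Wilson intervals (y axis) and cell numbers beside each point. Right, the ratio of T cells to NK cells in the same pools (blue, 3 months; red, 15 months); the third 15-month pool is highest in both, at 2.68% and 1.00.

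By coreceptor, CD8 was the main class that could be named and most T cells showed neither coreceptor. Of 71 T cells, 28 (39.4%) had a UMI of Cd8a or Cd8b1, which encode the chains of CD8, 5 (7.04%) had Cd4, 0 had both, and 38 (53.5%) had neither. At 3 months these were 8, 2, 0 and 11 of 21 cells, and at 15 months 20, 3, 0 and 27 of 50. A count of 0, taken as at most 3 counts of the total, allows a share of up to 14.3% of the 21 and up to 6.00% of the 50 cells, as a limit on cells with UMIs of both.

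Both coreceptors were also looked for in the other classes. Cd8a and Cd8b1 were each seen in 1 of 2355 C1q-high cells and in 0 of 350 NK cells, beside 23 and 24 of 71 T cells. Cd4, which some macrophages also transcribe, was seen in 116 C1q-high cells (4.93%) and in 0 NK cells, beside the 7.04% of T cells (interval 3.05 to 15.4%). After thinning, 33.8% of T cells had a CD8 transcript, 2.82% had Cd4 and 63.4% had neither, so the class with neither grew as depth fell and is not a count of T cells that lack both proteins. Foxp3, the factor of regulatory T cells, was seen in 1 of 71 T cells, with 3 UMIs, in the second 15-month pool. That cell was among the 7 T cells rich in Cd74 that are described further on. Without those 7 cells Foxp3 was seen in 0 of 64 T cells and Cd4 in 4 of 64.

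CD8 shares varied as widely within an age as between ages. CD8 transcripts were seen in 2 of 6, 3 of 4 and 3 of 11 T cells of the 3-month pools and in 0 of 5, 9 of 21 and 11 of 24 of the 15-month pools. The ranges of the ages overlapped, and the pools with the extreme values held only 4 and 5 T cells. The mean share was 45.2% ± 26.0 (SD, n = 3) at 3 months and 29.6% ± 25.6 (SD, n = 3) at 15 months, with an exact permutation p = 0.6. For Cd4 the means were 8.59% ± 8.34 and 4.37% ± 4.18 (exact permutation p = 0.5), and for neither coreceptor 46.2% ± 19.6 and 66.1% ± 29.6 (exact permutation p = 0.5). Adjusted over the 6 subset comparisons no p was below 0.9. The Cd4 difference turned positive, to 2.78 percentage points, after thinning.

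**Figure D3:**
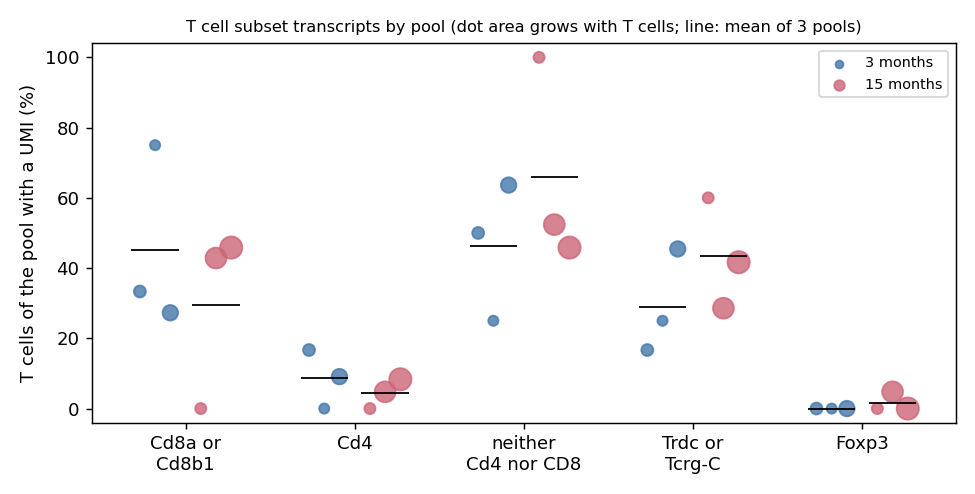
Share of the T cells of each pool with a subset transcript (y axis, %), for CD8, Cd4, neither coreceptor, gamma-delta constant regions and Foxp3 (x axis); each dot is a pool, its area grows with its number of T cells, and lines are means of 3 pools. The ages overlap in every column, from 0 to 75.0% for CD8 and from 25.0 to 100% for neither coreceptor.

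The cells with and without a CD8 transcript differed in what else was seen in them, for genes picked after their values were seen. All 28 CD8 cells had Trac, against 26 of the 43 cells without CD8. Nkg7 was seen in 27 of 28 against 20 of 43, Ccl5 in 26 against 21, and Cd28, the costimulatory receptor, in 23 against 20. Eomes, a transcription factor of memory CD8 cells, was seen in 15 against 7, Gzmk in 14 against 6, Gzma in 8 against 2 and Ifng, the cytokine interferon gamma, in 8 against 2. The 2 cells with Gzma and no CD8 transcript held 125 of the 370 Gzma UMIs of T cells.

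Other transcripts were commoner in the cells without CD8. Il7r was seen in 10 of 28 CD8 cells and 30 of 43 others, Rora in 7 and 19, and Maf, a transcription factor of several helper and gamma-delta states, in 6 and 21. Cd40lg, the helper ligand CD40L, was seen in 0 and 12 cells, and Il2ra, a chain of the high-affinity interleukin 2 receptor, in 0 and 9. Median depth was 3207.5 UMIs in CD8 cells and 3906 in the others, and the split was made on these same cells, so no test is given. The counts include the 7 cells rich in Cd74, whose median depth was 12642 UMIs. Without those 7 cells, 27 of 64 T cells had a CD8 transcript, so all but 1 of them were among the cells without CD8.

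Of the 71 T cells, 26 (36.6%) had a UMI of Trdc or of Tcrg-C1, Tcrg-C2 or Tcrg-C4, the constant regions of the delta and gamma chains. By pool these were 1 of 6, 1 of 4 and 5 of 11 at 3 months and 3 of 5, 6 of 21 and 10 of 24 at 15 months. The ages overlapped, with means of 29.0% ± 14.8 (SD, n = 3) and 43.4% ± 15.8 (SD, n = 3) and an exact permutation p = 0.4. These transcripts alone do not define the lineage: 18 of the 26 cells also had Trac, 7 had a CD8 transcript, and Trdc was seen in 33 of 350 NK cells (9.43%) and Tcrg-C4 in 21. After thinning the share was 26.8%.

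Trdc itself was seen in 9 T cells, which fell into 2 kinds when their variable genes were looked at after the values were seen. In 5 cells Trdc came with Trdv4, a delta variable gene, and in 4 it did not. Trdv4 was not particular to T cells: its pooled level was 90.0 CPM in T cells and 29.3 CPM in NK cells. The Trdv4 cells were 1 cell of the third 3-month pool, 1 of the first 15-month pool and 3 of the second 15-month pool, with 4, 9, 1, 8 and 8 Trdv4 UMIs. Trdc and Trdv4 lie on chromosome 14 within the receptor alpha and delta locus (chr14:54142851-54148868 and chr14:54074905-54075515).

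All 5 Trdv4 cells had Tcrg-C1, Cd163l1 (a scavenger receptor known from gamma-delta T cells, chr7:140218267-140231145), Il7r, Cxcr6, Cd69, Ltb (the chain of lymphotoxin) and Actn2. Il2ra, Rora, Maf and Tnfsf11, the gene of the cytokine RANKL, were each seen in 4 of the 5. Ccl5, Nkg7, Cd28 and Klrd1 were seen in 0 of the 5. The alpha-beta constant regions were seen as well: in the order of the Trdv4 UMIs above, Trbc2 had 6, 6, 4, 1 and 6 UMIs. Trac had 1, 1, 4, 0 and 1 in that order. Outside these 5 cells Cd163l1 was seen in 0 of 66 T cells, Actn2 in 11 and Tnfsf11 in 5. The cytokine gene Il17a was seen in 1 Trdv4 cell and 1 other, and the variable genes Tcrg-V6 and Trav11 had 0 UMIs in all T cells. Tcrg-V1, Tcrg-V4 and Tcrg-V5 had 1, 2 and 1 UMIs over all T cells.

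The 4 Trdc cells without Trdv4 looked unlike them. All 4 had Ccl5, 410 UMIs in sum, with Nkg7, Ly6c2, Klrd1 and Klrk1, the last 2 being lectin receptors shared with NK cells, and 1 of the 4 had Il7r. They came from pools 1 and 3 at 3 months and pools 2 and 3 at 15 months, 1 cell each. Both kinds were thus seen at both ages, in numbers too small to compare.

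**Figure D4:**
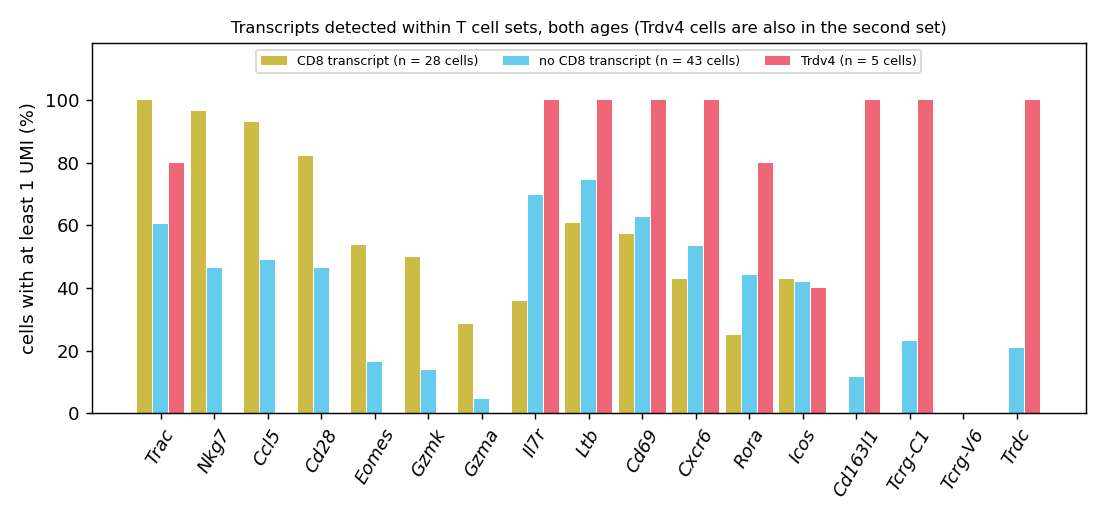
Share of cells with at least 1 UMI (y axis, %) of 17 genes (x axis) in 28 T cells with a CD8 transcript, 43 without and the 5 with Trdv4, which are also among the 43. Nkg7, Ccl5, Eomes, Gzmk and Gzma are commonest in the CD8 cells, while Il7r, Cxcr6, Cd69, Cd163l1 and Tcrg-C1 were seen in all 5 Trdv4 cells.

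A few T cells held nearly all of the Cd74 transcripts. Cd74, the invariant chain that escorts MHC class II, had 1304 UMIs in T cells, of which 1266 were in 7 cells with at least 10 each, a threshold set after the values were seen. These 7 cells were 1, 1 and 2 of the 3-month pools and 1, 2 and 0 of the 15-month pools, and their median depth was 12642 UMIs against 3697 in the other 64. Of the 7, 6 had Cd209a, a lectin of dendritic cells, 2 had Flt3, a receptor of dendritic cell precursors, and all 7 had Trbc2. A droplet that caught a T cell together with a dendritic cell of the same pool carries 1 hashtag and is not removed by the hashtag limit, and its part in these cells was not tested.

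Markers of other cells in the T cell sums were checked by list. The 9 dendritic cell markers summed to 3771, 13765 and 19772 CPM in the 3-month pools and 12790, 9465 and 634 CPM in the 15-month pools. The 12 macrophage and monocyte markers summed to 3636, 973 and 1634 CPM, then 2864, 1718 and 1668 CPM, within the limits of the rule. The ages overlapped for both lists, and the third 15-month pool was lowest for the dendritic cell list.

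The 5 red cell markers summed to 628, 786 and 387 CPM at 3 months and 33.3, 20.1 and 30.7 CPM at 15 months, without overlap between the ages. Hbb-bs, a hemoglobin beta chain, was below the filter for the test in T cells. It had 404, 449 and 228 CPM there at 3 months and 0, 20.1 and 0 CPM at 15 months. In NK cells it had 8672, 381 and 573 CPM, then 39.0, 25.5 and 20.4 CPM, so the first 3-month pool was far above the others. For NK cells edgeR's test gave a log2 ratio of -6.88 with an adjusted p of 0.0107. Over all kept cells Hbb-bs had 4731, 1678 and 10279 CPM, then 16.2, 131 and 17.0 CPM. B cell markers summed to 89.8, 37.4 and 105 CPM, then 167, 241 and 205 CPM, without overlap, and NK markers to 1122, 299 and 228 CPM, then 266, 372 and 491 CPM, which overlapped. Theca and luteal markers reached at most 81.9 CPM. Stroma and mast cell markers were at 0 in all 6 pools, neutrophil markers were between 0 and 33.3 CPM, and 1 cell of the second 15-month pool held 10 UMIs of the endothelial gene Cldn5. The part of these other transcripts in the age comparison was not tested.

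With age, the test across genes in T cells made 1 call. UMIs were summed over the T cells of each pool and tested with the quasi-likelihood test of edgeR, and 556 genes passed its filter on low counts. Of these, 1 passed an adjusted p of 0.05 (Benjamini-Hochberg), which is 0.180% of those tested. At an unadjusted p under 0.05 there were 28 (5.04%). In 72 genes (12.9%) the pools of the ages did not overlap, 37 of them higher at 15 months (6.65%) and 35 lower (6.29%). DESeq2 also called 1 gene, the same one. In the deeper NK cells of the same pools 17 of 2762 genes passed (0.615%).

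The gene called was Gm42418, annotated as a long intergenic noncoding RNA on chromosome 17 (chr17:39846958-39848788). In T cells it had 898, 1309 and 1986 CPM in the 3-month pools and 7794, 18428 and 11706 CPM in the 15-month pools. All 3 pools at 15 months were higher than all 3 at 3 months. It rose by a log2 ratio of 3.20 ± 0.37 (SE), with an adjusted p of 0.00722 in edgeR's test. Without the second or the third 3-month pool it did not pass, at adjusted p of 0.174 and 0.149, with log2 ratios of 3.13 and 3.60. The rise was not particular to T cells: in NK cells Gm42418 rose by 2.67 ± 0.13 (SE) on the log2 scale (adjusted p = 3.68e-09 in edgeR's test), and in C1q-high cells it had 2771 to 3287 CPM at 3 months and 7575 to 12769 CPM at 15 months. Over all kept cells of a pool it had 2470 to 3241 CPM at 3 months and 8299 to 11575 CPM at 15 months. Gm42418 overlaps the gene AY036118 on the other strand in the annotation, and reads of the pair are uncertain, since no source used here gives the strand setting of the counting.

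Cxcr6 had the second smallest p and did not pass. Its level in T cells was 135, 37.4 and 158 CPM in the 3-month pools and 300, 522 and 450 CPM in the 15-month pools. The 3 older pools were all above the 3 younger ones. The log2 ratio was 1.92 ± 0.44 (SE) with an adjusted p of 0.528 in edgeR's test. In NK cells the levels were 30.8, 42.4 and 48.9 CPM, then 52.0, 86.2 and 194 CPM, also without overlap.

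Cxcr6 belongs to a list of 14 genes of tissue residence, of which 6 were tested. None of the 6 passed, 4 had a positive and 2 a negative log2 ratio, and the median was 0.79 against -0.01 over all 556 genes. Cd69, which holds T cells in tissue by removing the exit receptor S1P1, had 44.9, 299 and 246 CPM at 3 months and 300, 462 and 553 CPM at 15 months. The pools did not overlap, with 299.2 against 299.8 CPM at the nearest pair, and the log2 ratio was 1.15 ± 0.46 (SE, adjusted p = 0.770 in edgeR's test). Rgs1, a regulator of chemokine signalling, had 1885, 150 and 879 CPM and then 400, 1236 and 941 CPM, which overlapped. Itgae, the CD103 chain of epithelial residence, was seen in 1 of 71 T cells.

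The mitochondrially encoded transcripts leaned one way. Of 13, 10 were tested, all 10 had a positive log2 ratio with a median of 0.52, 7 had an unadjusted p under 0.05 and none passed the adjustment. In 8 of the 10 the 15-month pools were all above the 3-month pools. Over all genes tested, 6.65% were higher without overlap and 5.04% had an unadjusted p under 0.05. mt-Co3, a subunit of cytochrome c oxidase, had 4534, 2992 and 4271 CPM at 3 months and 6262, 5838 and 6549 CPM at 15 months, a log2 ratio of 0.70 ± 0.18 (SE, adjusted p = 0.693 in edgeR's test). mt-Co2 had 3591, 3516 and 3779 CPM, then 5895, 4964 and 4819 CPM, and mt-Nd1, a subunit of complex I, had 1392, 860 and 1213 CPM, then 1765, 1728 and 2210 CPM. The list's summed level was 20349 to 26416 CPM at 3 months and 31259 to 36386 CPM at 15 months.

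The share of mitochondrial UMIs is also a measure of cell quality, and it was higher at 15 months in the other cells too. The median per T cell was 2.44, 2.38 and 2.44% in the 3-month pools and 3.24, 3.17 and 3.27% in the 15-month pools. In NK cells it was 1.88, 1.92 and 1.98%, then 2.34, 2.11 and 2.32%, and over all kept cells 1.71, 1.93 and 2.04%, then 2.48, 2.31 and 2.71%. The ages did not overlap in any of these 3 sets, and the part of cell quality in the T cell values was not tested.

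The killing genes were uneven between pools and none passed in the test as reported. Gzma and Gzmb, both with a lower mean at 15 months, were called with no filter on low counts. In the 3 pools with at least 10 T cells Ccl5 went the other way. It had 1775 CPM in the 3-month pool and 8440 and 9342 CPM in the 15-month pools. Of 13 genes of the cytotoxic list 5 were tested, all 5 had a negative log2 ratio and the median was -0.41. Over all 556 tested genes 286 had a negative log2 ratio. Ccl5 had 20199, 11035 and 1775 CPM in the 3-month pools and 1232, 8440 and 9342 CPM in the 15-month pools. Gzma had 6105, 4376 and 246 CPM, then 0, 985 and 51.2 CPM, and Nkg7 2514, 1421 and 457 CPM, then 533, 1256 and 1310 CPM. The ages overlapped for all 3 genes. The 370 Gzma UMIs came from 10 cells, 7 of them at 3 months, with 84 UMIs in a single cell of the first 3-month pool, and the adjusted p was 0.770 in edgeR's test. Gzmb, below the filter, had 1571, 1982 and 141 CPM at 3 months and 200, 221 and 30.7 CPM at 15 months, which overlapped. Gzmk, also below it, had 180, 187 and 17.6 CPM, then 66.6, 141 and 215 CPM. Cst7 and Ccl3, below it too, went up without overlap, on 25 and 18 UMIs in all. Cst7 had 44.9, 37.4 and 17.6 CPM, then 133, 100 and 81.9 CPM. Ccl3 had 0, 0 and 17.6 CPM, then 133, 60.3 and 71.6 CPM. Of the 556 tested genes 6.65% were higher without overlap, and that share was not computed below the filter.

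NK-type receptors followed a like pattern. Of 12 genes of the list 6 were tested, all 6 had a negative log2 ratio, the median was -0.27 and none passed. Over all 556 tested genes 286 had a negative log2 ratio. Klrd1, the CD94 chain, had 1212, 299 and 369 CPM at 3 months and 66.6, 231 and 184 CPM at 15 months, without overlap, at a log2 ratio of -1.66 ± 0.59 (SE, adjusted p = 0.770 in edgeR's test). Ly6c2 had 269, 1309 and 299 CPM, then 300, 121 and 512 CPM, which overlapped.

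Whether age effects in T cells differed from those in NK cells was tested as an interaction, with the pool as a block. None of 1940 genes passed, and 71 (3.66%) had an unadjusted p under 0.05. The smallest p were those of Jun, Gon4l, Gzmb and Gzma, with differences in log2 ratio (T minus NK cells) of 2.49, -3.33, -3.28 and -3.70, all at an adjusted p of 1 in edgeR's test. Gzma in NK cells was 12416, 8585 and 11540 CPM at 3 months and 14939, 16606 and 9128 CPM at 15 months, which overlapped.

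Outside the genes of the rule, no gene of the receptor complex passed the test for age. Of 23 genes for the receptor and its first signalling steps 11 were tested, leaving out the Cd3 genes of the rule. Of the 11, 8 had a positive and 3 a negative log2 ratio, and the median was 0.33. Over all 556 tested genes 270 had a positive and 286 a negative log2 ratio. Trbc2 had 1930, 1085 and 1441 CPM, then 633, 1246 and 1361 CPM. Trac had 449, 449 and 158 CPM, then 466, 452 and 399 CPM. Lck, the kinase that starts receptor signalling, had 449, 299 and 316 CPM at 3 months and 266, 211 and 246 CPM at 15 months, and Lat, the adaptor downstream of it, 135, 299 and 246 CPM, then 366, 342 and 358 CPM. Lck and Lat were without overlap in opposite directions, at log2 ratios of -0.51 ± 0.32 and 0.64 ± 0.34 (SE), and their adjusted p were 0.858 and 0.770 in edgeR's test.

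Immediate early genes, which dissociation of tissue can also switch on, were the fully measured list. All 15 were tested, 11 had a positive and 4 a negative log2 ratio, the median was 0.24 and none passed. Jun had 89.8, 37.4 and 562 CPM at 3 months and 1765, 1648 and 675 CPM at 15 months, a log2 ratio of 2.36 ± 0.71 (SE, adjusted p = 0.693 in edgeR's test). The older pools were all above the younger ones for Jun, but 27.0% of its UMIs came from 1 cell. Fos overlapped between the ages, at 89.8, 1683 and 1371 CPM, then 1998, 1316 and 501 CPM. Junb, the most even of the 3, had 2155, 2693 and 3093 CPM, then 3231, 3266 and 2599 CPM.

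Of 11 genes of resting and circulating T cells 2 were tested, and neither passed. Il7r had 89.8, 299 and 545 CPM, then 566, 533 and 655 CPM, and overlapped by 1 pair of pools, with a log2 ratio of 0.82 ± 0.46 (SE, adjusted p = 0.797 in edgeR's test). Klf2, a factor of recirculating T cells, had 1122, 673 and 1476 CPM, then 999, 583 and 563 CPM. Ccr7, the receptor for lymph node homing, was seen in 11 T cells, with 314, 0 and 264 CPM, then 0, 90.4 and 143 CPM. Il7r, Klf2 and Ccr7 overlapped between the ages. Below the filter, 2 members were lower at 15 months without overlap: Lef1, a factor of resting T cells, had 89.8, 150 and 70.3 CPM, then 0, 50.2 and 30.7 CPM, and Dapl1 had 44.9, 37.4 and 211 CPM, then 0 in all 3 pools. They rest on 18 and 14 UMIs in all, with 7 of the Dapl1 UMIs in 1 cell. Of the 556 tested genes 6.29% were lower without overlap, and that share was not computed for genes below the filter. Among integrins, 4 of 8 were tested with 2 positive and 2 negative log2 ratios and a median of -0.39. Itgb7 had 269, 262 and 299 CPM at 3 months and 99.9, 191 and 143 CPM at 15 months, without overlap, at a log2 ratio of -0.81 ± 0.39 (SE, adjusted p = 0.770 in edgeR's test).

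Of 9 MHC class I genes 6 were tested, 1 had a positive and 5 a negative log2 ratio, and the median was -0.30. H2-D1 had 3771, 2843 and 2742 CPM, then 2331, 2381 and 2476 CPM, without overlap and at an adjusted p of 0.813 in edgeR's test. The lists for regulatory T cells, inhibitory receptors, type 2 innate lymphoid genes, cell cycle and interferon response had no member deep enough to test. Pdcd1, the inhibitory receptor PD-1, was seen in 12 T cells, with 135, 0 and 123 CPM, then 0, 100.5 and 40.9 CPM, and Tox, a factor of exhausted T cells, in 21 T cells, with 135, 112 and 35.2 CPM, then 66.6, 100.5 and 92.1 CPM. Both overlapped between the ages. Tnfrsf9, the costimulatory receptor 4-1BB, had 135, 187 and 35.2 CPM, then 0, 30.1 and 0 CPM. Ctla4, an inhibitory receptor from the regulatory list, had 89.8, 74.8 and 87.9 CPM, then 0, 60.3 and 30.7 CPM. Neither of these overlapped, on 13 and 18 UMIs in all. Rora, from the type 2 innate lymphoid list, had 44.9, 37.4 and 141 CPM, then 167, 352 and 287 CPM, also without overlap. Tnfrsf9, Ctla4 and Rora were all below the filter, where the share of genes without overlap was not computed. Of the 556 tested genes 6.65% were higher and 6.29% lower without overlap. The lists of helper, CD8, gamma-delta, cytokine and chemokine receptor genes had 1 tested member each, and none of those passed.

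**Figure D5:**
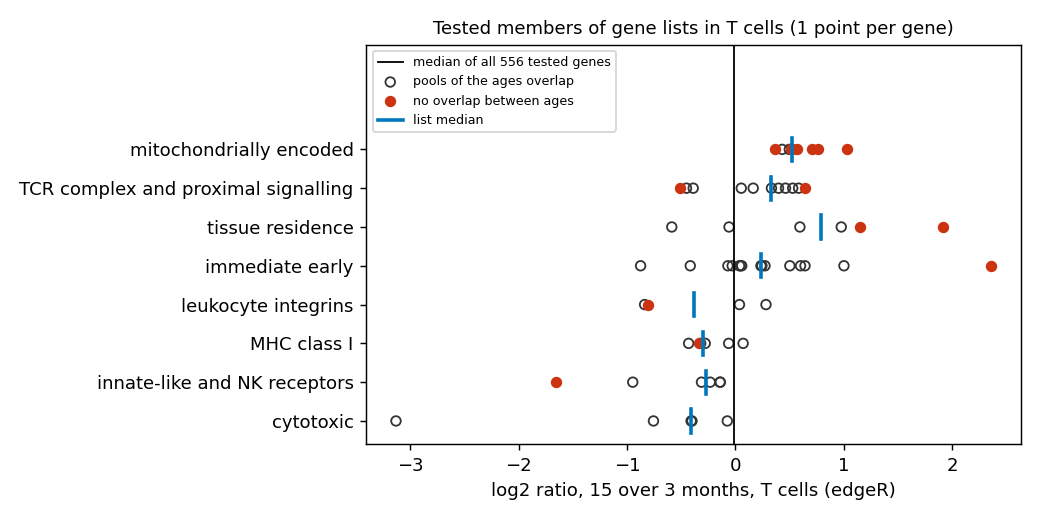
Log2 ratio of 15 over 3 months in T cells (x axis, edgeR) for each tested member of 8 gene lists (y axis), without the genes of the rule. Filled points are genes whose pools do not overlap between the ages. Blue bars are list medians and the black line is the median of all 556 tested genes (-0.01). The mitochondrial list lies wholly above 0. Both the cytotoxic list and the list of innate-like and NK receptors lie wholly below it, and no point shown passed the adjusted threshold.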

How the data were processed

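Gene and hashtag UMI counts were deposited by the authors as raw matrices over called cells, with no normalization, per the file headers. Cell Ranger is version 4.0.0 in the headers but 7.0.0 in the submitters' processing notes, which also name FastQC 0.11.4 and mm10. Positions come from GENCODE M21 (GRCm38). No doublet caller was run, so doublets within a pool remain.

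The T cell members and all 29 gene lists were chosen with earlier results of these data known. Counts were summed over T cells by hashtag pool, filtered with filterByExpr, scaled by TMM and tested with edgeR 4.0.16 (R 4.3.3), with Benjamini-Hochberg adjustment over all genes tested; the code was tested on simulated data. The SE is the log2 ratio over the square root of F. Levels are plain CPM of a pool's T cells. Shares were compared with exact permutation tests (scipy 1.17.1). P-values measure the spread between pools inside 1 library per age. Named genes were drawn from those of the rule and subsets, the 3 highest members of each list, the 10 smallest p and Itgam. Not all of these are described above. Wnk1, Serinc3, Ddx3x and mt-Atp6, among the 10 smallest p, were higher at 15 months without overlap, at an adjusted p of 0.693 in edgeR's test. Some list members, such as Gata3, Mcm5 and Zbtb7b, were also left out. Other genes were named after their values were seen. Alternatives covered normalization, filters, DESeq2 1.42.0, the limits of the rule, thinning and each pool left out.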

Additional observations from a re-analysis of the deposited data

How the results depend on the processing

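The difference in T cell share kept its sign under 15 of 16 alternatives and ranged from -0.173 to 0.841 points with 1 pool left out, the negative value being without the third 15-month pool. The Cd4 difference of -4.22 points turned to 2.78 after thinning and to 1.39 with at least 2 UMIs. With 1 pool left out, the subset differences ranged from -24.6 to -0.740 points for CD8, -8.51 to -0.180 for Cd4, 2.90 to 29.98 for neither and 6.08 to 22.6 for gamma-delta genes. The count of genes called in T cells was 12 with no filter on low counts (6 higher and 6 lower of 10654, with Jun at an adjusted p of 0.00124), 2 with a mean of at least 50 CPM, 2 with at least 1 Cd3 UMI, 2 with Ncr1 at any count and 19 in the pools with at least 10 T cells (7 higher, 12 lower of 1925, where the lone 3-month pool is assumed to vary like the others). It ranged from 0 to 2 with 1 pool left out, at 0 without 3-month pool 2 or 3 and at 2, with Hbb-bs added, without the first 15-month pool. Hbb-bs was also the gene added to Gm42418 with a mean of at least 50 CPM, with at least 1 Cd3 UMI and with Ncr1 at any count. It was among the 12 called with no filter too. For the age effect in T against NK cells the count was 5 with no filter (Cd74, Gzma, Gzmb, Ifitm3 and Jun) and 0 to 5 with 1 pool left out, at 1 (S100a6) without the first and 5 without the third 3-month pool. The cause was not tested. Without the 7 cells of at least 10 Cd74 UMIs, an alternative chosen after seeing the data, 1 of 300 genes was called.

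Pools of the same number deviated with correlations of -0.21, 0.19 and -0.27. With 3 pools per age and few T cells in each, these values cannot decide whether the numbers pair samples. The labels mark no shared animal or day. With the number as a replicate block, 1 of 556 genes was called (Gm42418, log2 ratio 3.19), the share difference had an exact permutation p of 0.75, and no other call changed. The 4 to 24 T cells per pool limit every value.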
